A study of Mus musculus with 768 samples.

Results

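Interferon-stimulated genes are the genes that cells switch on when interferon binds its receptors. They were described here as a set of 41 named genes, chosen by symbol and read from the 24490 gene entries of the series, in NK cells taken from MTAP1A tumors, a fibrosarcoma line made from a Tap1-deficient mouse. All 41 symbols were found, each on a single entry. Tumors of 3 WT mice were pooled, and so were tumors of 3 PD-1-/- mice, all on a C57BL/6 background. The PD-1-/- mice carry a deletion within Pdcd1 that prevents the protein from being made and leaves part of the transcript. Single cells in the gate for NK cells, which requires NK1.1 at the surface, were sorted into 1 multi-well plate per genotype, 768 wells in all, for SMART-SEQ2. Genotype, pool and plate therefore cannot be told apart, there is 1 sample per genotype, and no difference between genotypes was tested. Intervals are exact 95% binomial intervals or, for medians, intervals from order statistics, and both cover the sampling of cells within a plate only.

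Type I interferons signal through Ifnar1 and Ifnar2 to a complex that holds Stat2 and Irf9 and binds a DNA element called the ISRE. Interferon gamma signals through Ifngr1 and Ifngr2 to factors that bind the GAS element and induce Irf1, which in turn can act on ISRE-like sites. The products detect viral nucleic acids, block translation and viral replication, or attack pathogen vacuoles. NK cells are a major source of interferon gamma and respond to type I interferon with increased cytotoxicity.

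Wells with 1000 to 3500 detected genes were kept, which left 726 cells, 360 of them WT and the rest PD-1-/-, with a median of 2265 and 2263 detected genes. Reads recovered from the RPKM steps had a median of 347610 per WT cell and 372999 per PD-1-/- cell, and 21 and 14 of these cells had fewer than 100000. All 8 NK markers were found in 55.2% or more of the cells of each genotype. Klrb1c, the gene of NK1.1, was found in 96.1% of WT cells and 96.99% of those from PD-1-/- mice. T cell markers lay between 0 and 16.9% of cells per gene, and at least 1 of them was detected in 22.2% (WT) and 26.8% (PD-1-/-) of cells. Markers of myeloid cells were found in 13.1% and 7.10% of cells, and those of B cells, neutrophils and fibrosarcoma cells in at most 5.83%. Of the plasmacytoid dendritic cell markers other than the member Bst2, at least 1 was found in 25.6% and 21.04% of cells, nearly all through Tcf4 (24.7% and 20.8%), whereas the defining Siglech was found in 1 WT and 0 PD-1-/- cells and Ccr9 in 5 and 1. Pdcd1 transcripts were found in 9 WT and 47 PD-1-/- cells, and a value per gene does not show whether the deleted exons were covered.

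Promoters of the members were searched for both elements. RefSeq promoters on GRCm38.p6, 250 bases before to 50 bases after the gene start, were held for 30 of the 41 members. The ISRE core, GAAA, any pair of bases and GAAA, on either strand, stood in 18 of the 30 (60%) and in 3.99% of all 27025 genes with a promoter. The GAS core TTCNNNGAA stood in 10 of the 30 (33.3%) and in 9.55% of all genes. Both motifs can overlap in one stretch. A match is a run of letters and not a measured binding site. The promoters below are those of the 4 members that followed the rest of the set most closely across cells, and of Irf1 and Gbp2 as interferon gamma targets, with ISRE and GAS cores in capitals.
Bst2, chr8:71537423-71537722, minus strand: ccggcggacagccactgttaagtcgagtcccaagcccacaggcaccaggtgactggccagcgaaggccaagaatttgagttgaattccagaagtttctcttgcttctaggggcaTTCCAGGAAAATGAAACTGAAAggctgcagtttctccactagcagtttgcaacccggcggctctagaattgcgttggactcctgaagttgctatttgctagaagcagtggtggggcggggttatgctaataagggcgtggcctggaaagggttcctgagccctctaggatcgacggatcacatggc
Igtp, chr11:58199306-58199605, plus strand: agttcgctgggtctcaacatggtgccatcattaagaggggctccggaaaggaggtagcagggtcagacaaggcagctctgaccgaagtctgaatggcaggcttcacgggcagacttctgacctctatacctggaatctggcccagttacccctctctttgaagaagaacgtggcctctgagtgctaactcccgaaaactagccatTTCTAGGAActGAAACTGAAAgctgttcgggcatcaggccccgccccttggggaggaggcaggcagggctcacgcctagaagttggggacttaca
Oas1a, chr5:120907476-120907775, minus strand: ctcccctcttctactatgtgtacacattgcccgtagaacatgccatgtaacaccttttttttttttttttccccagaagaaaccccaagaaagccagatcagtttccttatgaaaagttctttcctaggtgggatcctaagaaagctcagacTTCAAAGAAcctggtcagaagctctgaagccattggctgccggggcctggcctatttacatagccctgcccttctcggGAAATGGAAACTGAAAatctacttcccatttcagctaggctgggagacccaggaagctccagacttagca
Ddx58, chr4:40239776-40240075, minus strand: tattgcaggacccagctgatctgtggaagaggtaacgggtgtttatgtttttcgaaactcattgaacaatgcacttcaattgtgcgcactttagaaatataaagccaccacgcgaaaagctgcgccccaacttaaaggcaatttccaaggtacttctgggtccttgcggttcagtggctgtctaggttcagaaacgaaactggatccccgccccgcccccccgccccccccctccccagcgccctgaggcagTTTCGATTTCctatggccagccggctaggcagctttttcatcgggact
Irf1, chr11:53769764-53770063, plus strand: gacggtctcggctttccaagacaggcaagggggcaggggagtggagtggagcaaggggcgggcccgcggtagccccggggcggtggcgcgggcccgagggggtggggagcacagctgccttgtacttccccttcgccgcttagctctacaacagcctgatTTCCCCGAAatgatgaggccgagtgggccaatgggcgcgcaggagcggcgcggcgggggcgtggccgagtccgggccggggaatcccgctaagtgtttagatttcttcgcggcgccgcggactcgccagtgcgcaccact
Gbp2, chr3:142620413-142620712, plus strand: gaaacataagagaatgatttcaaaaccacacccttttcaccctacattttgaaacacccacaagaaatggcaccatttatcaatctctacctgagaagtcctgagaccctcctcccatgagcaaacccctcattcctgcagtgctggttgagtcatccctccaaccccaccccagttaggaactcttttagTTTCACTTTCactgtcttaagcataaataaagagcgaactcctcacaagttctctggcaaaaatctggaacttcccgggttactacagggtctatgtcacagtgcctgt
Bst2 and Oas1a each held a pair of overlapping ISRE cores, the first of them starting 130 bases before the gene start in Bst2 and 20 bases before it in Oas1a. The ISRE core of Igtp began 34 bases before the start, next to a GAS core at 45 bases. The Irf1 window held a GAS core 90 bases before the start and no ISRE core, and the Gbp2 window held an ISRE core 59 bases before the start and no GAS core.

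The members divided into a widely detected part and a rare part. Of the 41 genes, 16 were found in at least 20% of WT cells and 17 in at least 20% of PD-1-/- cells, whereas 19 were found in under 10% of the cells of both genotypes. Irf1, Gbp4, Gbp7, Samd9l, Ifi35 and Zbp1 were the most widely detected. The IFIT genes, the OAS genes other than Oas1a, Mx1, Mx2, Rsad2 and Isg15, the usual markers of a type I interferon response, were among the rare ones. The binomial intervals of the 2 genotypes overlapped for all 41 members. No such count over all genes is given here, so the overlap is not read as a trait of this set.

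**Figure D1:**
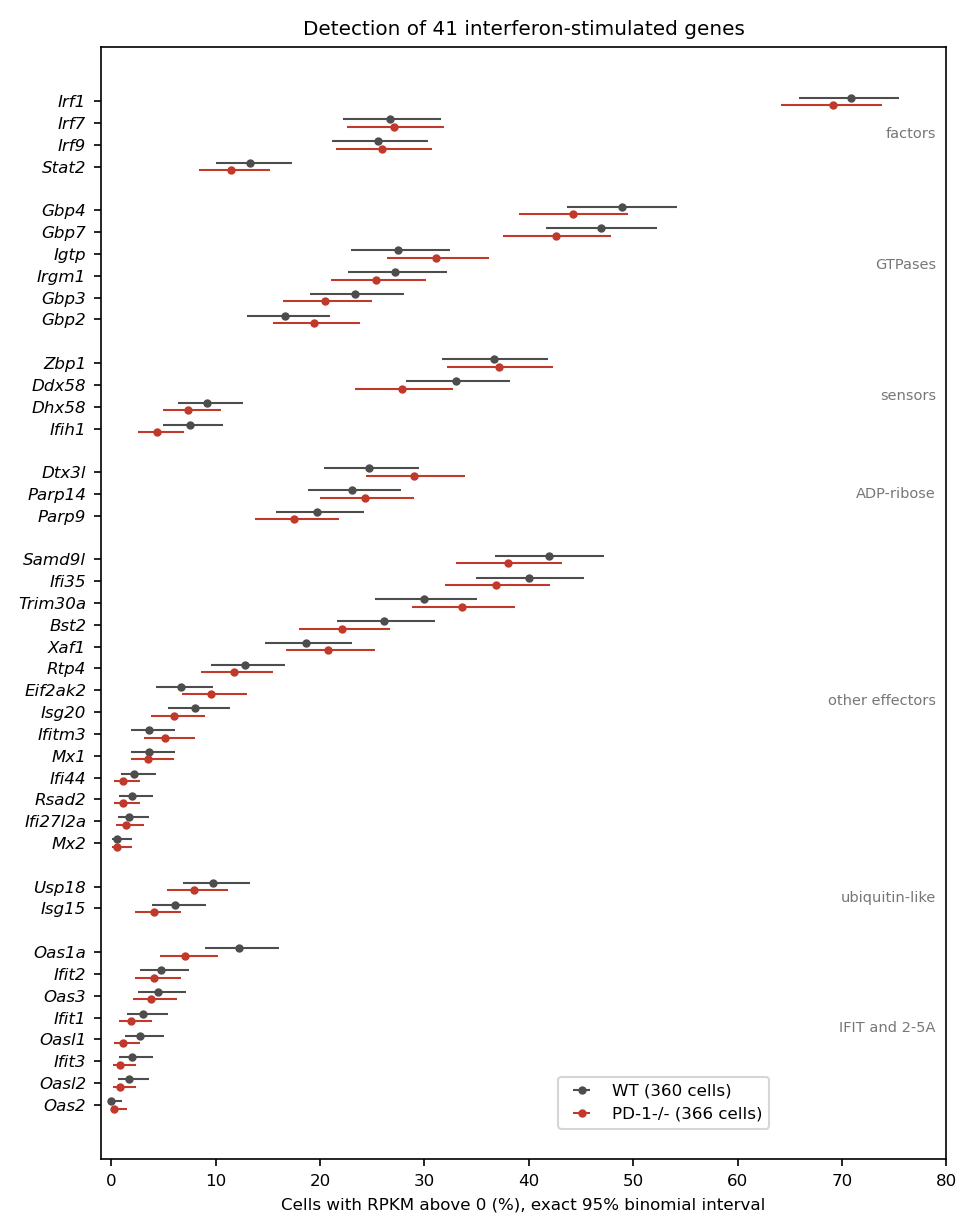
Share of cells with an RPKM above 0 for each of the 41 genes, grouped by role, in WT (grey) and PD-1-/- cells (red); bars are exact 95% binomial intervals over cells. Irf1 stands at 70.8% and 69.1%, and the intervals of the genotypes overlap for every gene shown, with no such count given over all genes.

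Among the transcription factors, Irf1, the first factor induced by interferon gamma, was the most widely found member. It was present in 70.8% of WT cells (95% interval 65.8 to 75.5) and 69.1% of PD-1-/- cells (64.1 to 73.8), with mean levels of 296.4 and 304.5 RPKM. The single highest Irf1 cell, at 2052 RPKM in WT and 2295 in PD-1-/-, held 1.92% and 2.06% of the genotype's sum, so no single cell carried the level. Irf7, which amplifies type I interferon, was found in 26.7% and 27.05% of cells with means of 79.2 and 68.3 RPKM. Irf9, the DNA-binding part of the type I complex, was found in 25.6% and 25.96% with means of 58.5 and 49.7 RPKM. Stat2, its partner, was found in 13.3% and 11.5% of cells. The log2 ratios of PD-1-/- over WT means (pseudocount 1 RPKM) of these 4 factors lay between -0.23 for Irf9 and 0.04 for Irf1.

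GTPases that attack pathogen vacuoles came next. Gbp4 was detected in 48.9% (WT) and 44.3% (PD-1-/-) of cells, at mean levels of 57.2 and 60.3 RPKM. Gbp7 was found in 46.9% and 42.6%, with means of 46.2 and 41.1 RPKM. The immunity-related GTPase Igtp was found in fewer cells, 27.5% and 31.1%, but at 80.98 and 93.3 RPKM on average. Irgm1, a regulator of the same GTPases, was found in 27.2% and 25.4% of cells with means of 79.3 and 71.4 RPKM. Gbp3 was found in 23.3% and 20.5% with means of 53.4 and 40.1 RPKM, and Gbp2 in 16.7% and 19.4%. None of the 6 GTPases reached a 1.5-fold ratio, and their median log2 ratio was -0.04.

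Sensors of viral nucleic acids were uneven. Zbp1, a sensor of left-handed nucleic acid, was found in 36.7% and 37.2% of cells with means of 121.2 and 115.4 RPKM. Ddx58, which encodes the RNA sensor RIG-I, was found in 33.1% and 27.9% with means of 30.02 and 22.8 RPKM. Its relatives Dhx58 (9.17% and 7.38%) and Ifih1, which encodes MDA5 (7.50% and 4.37%), were found in few cells. Ifih1 had a log2 ratio of -0.78.

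The 3 ADP-ribosylation genes were found in similar shares of cells. Dtx3l, a ubiquitin ligase that pairs with Parp9, was found in 24.7% of WT cells and 28.96% of PD-1-/- cells, at means of 21.5 and 19.7 RPKM. Parp14 was found in 23.1% and 24.3% with means of 12.1 and 10.1 RPKM, and Parp9 in 19.7% and 17.5%. Their log2 ratios lay between -0.23 and -0.06.

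Of the 14 other effectors, 5 were present in 20% or more of cells in a genotype. Samd9l, a translation inhibitor, was found in 41.9% and 37.98% of cells, at means of 31.3 and 27.5 RPKM. Ifi35 was found in 40% and 36.9% at 91.9 and 74.6 RPKM. Trim30a was found in 30% and 33.6% at 42.7 and 41.4 RPKM. Bst2, the tetherin that holds budding virus at the cell surface, was found in 26.1% and 22.1% at 70.3 and 54.7 RPKM, and Xaf1 in 18.6% and 20.8% at 16.5 and 16.1 RPKM. Rtp4 was found in 12.8% and 11.7% of cells, and Eif2ak2, the kinase PKR that stops translation, in 6.67% and 9.56%. Ifitm3, which blocks viral entry, was found in 3.61% and 5.19% of cells and had the highest log2 ratio of the set, 0.55, which changed sign between plate rows A to H (-0.38) and I to P (3.03).

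The rarest members were those of the antiviral core. Isg15, a ubiquitin-like modifier, was found in 22 WT and 15 PD-1-/- cells. Usp18, which removes Isg15 and damps the receptor, was found in 35 and 29 cells. Ifit1, which binds foreign RNA caps, was found in 11 and 7 cells, Ifit3 in 7 and 3, and Ifit2 in 17 and 15. Among the genes of 2-5A synthesis, Oas1a was found in 44 and 26 cells and Oas3 in 16 and 14. The related Oasl1 was found in 10 and 4 cells and Oasl2 in 6 and 3. Oas2 was found in 1 PD-1-/- cell and in 0 of 360 WT cells, which allows a share of up to 0.833% by the rule of 3 counts of the total and 1.02% by the exact interval. Mx1, a GTPase against influenza virus that is defective in most laboratory strains, was found in 13 cells of each genotype, Mx2 in 2 of each, and Rsad2, which encodes viperin, in 7 and 4. Isg20 was found in 29 and 22 cells, Ifi44 in 8 and 4, and Ifi27l2a in 6 and 5.

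Mean levels were then compared between the genotypes. Of the 41 members, 40 had a mean of at least 1 RPKM in a genotype, Oas2 being the exception. Of these, 15 (37.5%) were at least 1.5-fold lower in PD-1-/- cells and 0 were at least 1.5-fold higher. Over all 12030 genes that passed the same limit, 14% were lower and 11% higher by this measure. Low genes cross 1.5-fold more often: among the 4994 genes found in under 10% of the cells of both genotypes, 28.1% were lower and 20.6% higher. Of the 15 members, 14 were such rare genes. Among the 18 rare members that passed the limit, 14 were lower and 0 higher, so rarity alone does not give this count. The median log2 ratio was -0.26 over the 40 members and -0.03 over all genes. Over the 17 members present in 20% or more of cells in a genotype it was -0.17, with a range from -0.40 to 0.20 and no gene past 1.5-fold.

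**Figure D2:**
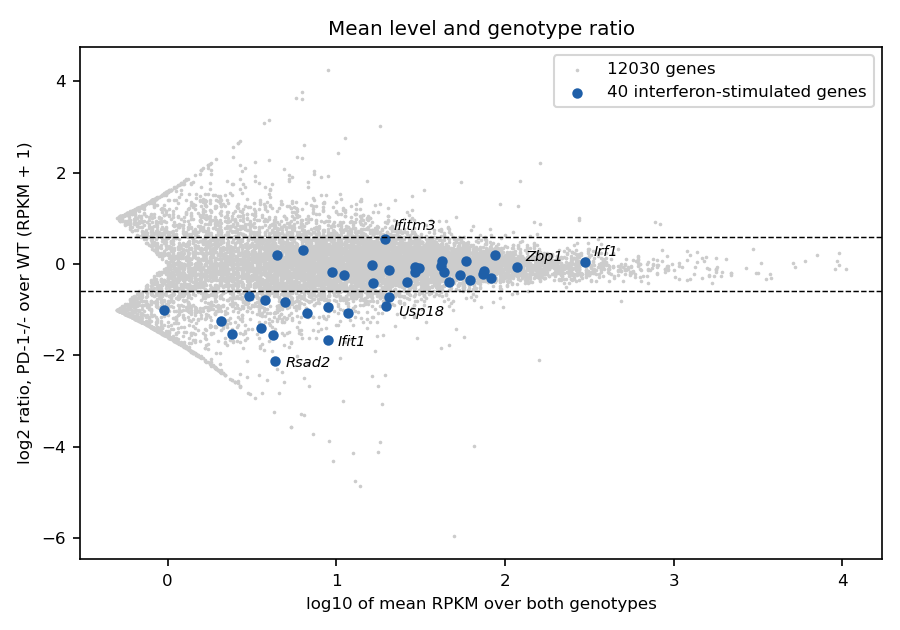
Log2 ratio of mean RPKM (pseudocount 1), PD-1-/- over WT, against the log10 of the mean RPKM of both genotypes, for 12030 genes (grey) and 40 interferon-stimulated genes (blue); dashed lines mark 1.5-fold. The members present in 20% or more of cells in a genotype lie between the lines. Under the lower line lie 15 members, 14 of them found in under 10% of the cells of both genotypes.

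Of the 15 lower members, 5 had a mean of at least 10 RPKM in a genotype. Ifit1 had means of 14.03 RPKM in WT and 3.77 in PD-1-/- cells (log2 ratio -1.66), and 1 WT cell at 2048 RPKM held 40.5% of the WT sum. Without this cell the WT mean of Ifit1 was 8.37 RPKM and the log2 ratio -0.97. Mx1 had means of 16.3 and 7.26 RPKM (-1.06), with the highest cells at 2136 and 1143 RPKM. Usp18 had means of 26.1 and 13.4 RPKM (-0.92), and Isg20, an exonuclease, had 25.8 and 15.2 (-0.72). Oas1a had 12.1 and 5.88 RPKM (-0.93), with no cell above 270 RPKM. The other 10 had lower means, with log2 ratios from -2.12 for Rsad2 to -0.71 for Ifi27l2a. Of the 15, 12 were lower in both plate row blocks, and Mx1, Mx2 and Usp18 were higher in rows A to H (0.39, 0.67 and 0.05). The blocks are parts of the same cells that picked the 15, so an equal sign in both is not independent support.

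A few cells held most of the RPKM of several rare members. The number of members above 0 had a median of 7 in WT and 6 in PD-1-/- cells, and over both genotypes pooled it ran without a break up to 19. Beyond it stood 10 cells with 22 to 30 members, 7 WT cells (1.94% of WT cells, interval 0.785 to 3.97) and 3 PD-1-/- cells (0.820% of theirs, 0.169 to 2.38). A limit of 20 members, set after the values were seen, separates them, and 9 cells had 15 to 19. These cells were single wells of 1 plate per genotype, and the intervals overlap. Without cells that held Cd3d, Cd3e or Cd3g transcripts, 5 WT and 3 PD-1-/- cells had 20 or more members.

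**Figure D3:**
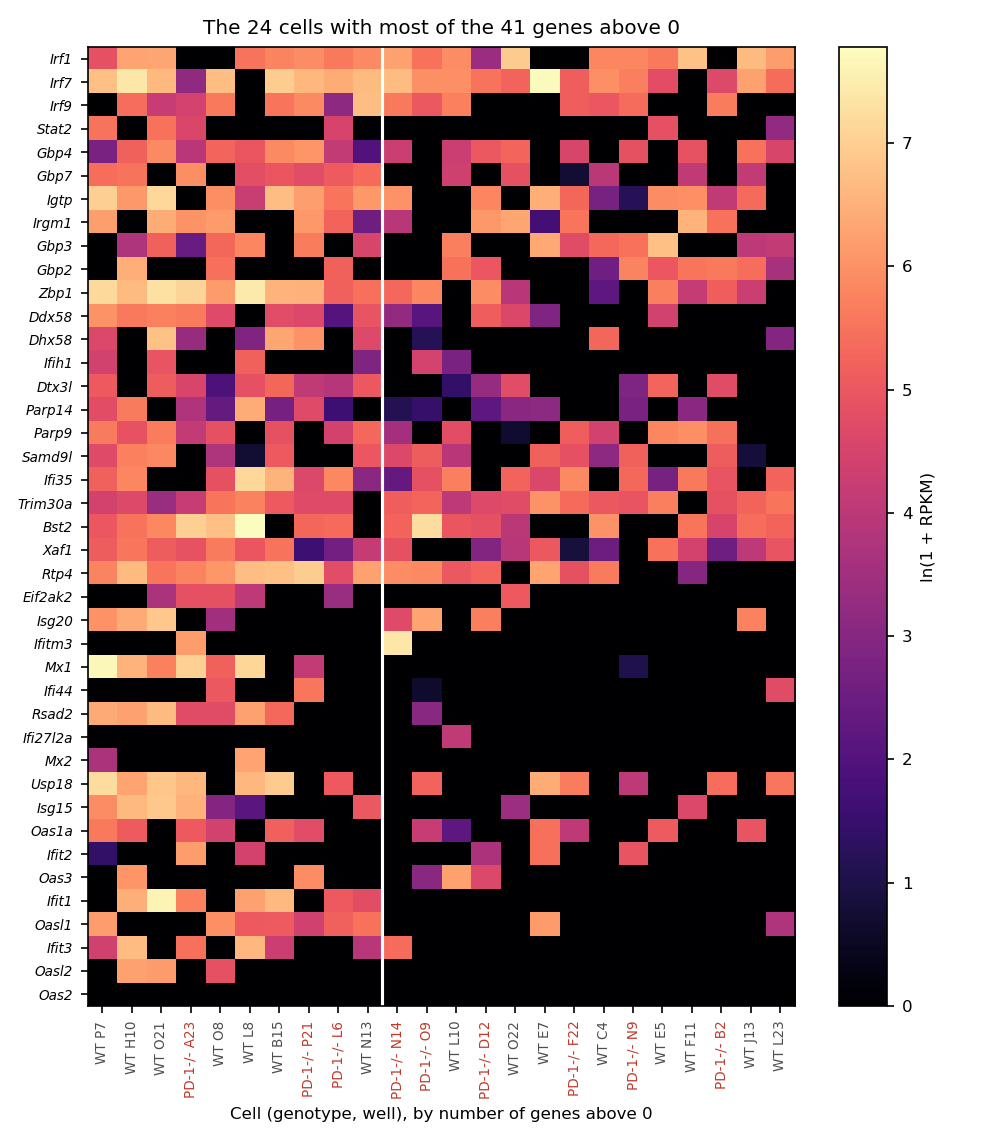
Values of ln(1 + RPKM) of the 41 genes (rows, by role) in the 24 cells with most of them above 0 (columns, WT in grey and PD-1-/- in red letters); the white line follows the 10 cells with 20 or more. Rsad2, Mx1, Ifit1 and Isg15 are bright mainly to the left of the line, whereas Irf1, Gbp4 and Trim30a are bright on both sides.

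Each of the 10 cells held between 4 and 12 of the 19 rare members, whereas 56.8% of the other 716 cells held none and the median was 0. The cells were chosen by their number of members, the rare ones included, so this contrast is in part built in. The WT cell in well P7 had 30 members, with Mx1 at 2136, Usp18 at 1365 and Zbp1 at 1337 RPKM. The WT cell in H10 had 28, with Irf7 at 1619, Ifit3 at 804 and Isg15 at 758 RPKM, and the WT cell in O21 had 27, with Ifit1 at 2048 and Isg15 at 977 RPKM. In PD-1-/- cells the highest was A23, with 27 members, Zbp1 at 1211 and Mx1 at 1143 RPKM. Zbp1, Gbp4, Rtp4 and Xaf1 were above 0 in all 10 cells.

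How much of each gene these cells held was read with the caution that the members chose them. They were 1.38% of the cells and held 91.97% of the summed RPKM of Rsad2, 75.9% of Ifit3, 71.4% of Ifit1, 67.8% of Mx1 and 60.8% of Isg15, against 1.29% of Irf1. Without them the log2 ratio of Ifit1 was -0.03, that of Mx1 0.10 and that of Rsad2 0.75. Then 5 of the 40 members were at least 1.5-fold lower: Oas1a (-0.88), Oas3 (-0.98), Oasl1 (-0.98), Ifi44 (-1.83) and Ifi27l2a (-0.72). With all cells kept, 14% of all genes were lower, and no share over all genes is given without the 10 cells. Oas1a was thus the only one of the 5 present in 10% or more of cells in a genotype.

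Genes outside the 41 gave a second view of the same cells. Of 50 further interferon-stimulated genes, these cells had 16 to 33 above 0, and the other cells had a median of 15 and a 95th percentile of 22. Single genes of this list differed. Cmpk2, a kinase gene next to Rsad2, was above 0 in 6 of the 10 cells and in 11 of the others. Ifitm1 and Ifitm2 were above 0 in 0 of the 10 cells and in 25 and 46 of the others. The chemokine gene Cxcl10 was above 0 in 3 of the 10 cells and in 12 of the others, and reached 4571 RPKM in WT P7 and 2643 in WT L8.

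Depth and other cell types were read beside this. The 10 cells had 1433 to 3133 detected genes and 241736 to 568344 recovered reads, within the range of the other cells. They held 4 to 8 of the 8 NK markers. Cd3e was above 0 in 2 of them, WT L8 and WT B15, and WT L8 lacked both Klrb1c and Ncr1. The wells beside 4 of the 10 had more than 12 members, 16 in the highest case (beside WT O21). A plasmacytoid marker was above 0 in WT O21, WT O8 and PD-1-/- L6, and a myeloid marker in WT O8; their part in the result was not tested. Whether material passed between wells was not tested.

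The score summarised the set per cell as the mean ln(1 + RPKM) of the 41 genes. WT cells ran from 0 to 4.04 with a median of 0.717 (interval 0.672 to 0.765), and PD-1-/- cells from 0 to 3.398 with a median of 0.692 (0.657 to 0.751). The difference of the medians, PD-1-/- minus WT, was -0.03, and the intervals overlapped. In the upper rows of the plates (A to H) it was -0.03, and in the lower rows (I to P) -0.0003. The SD over cells was 0.508 in WT and 0.405 in PD-1-/- cells, and without the 10 cells it was 0.340 and 0.351. Without these 7 WT and 3 PD-1-/- cells, the SD was no longer wider in WT. The cells were chosen by their number of members, which goes into the score, so this narrowing is in part built in.

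**Figure D4:**
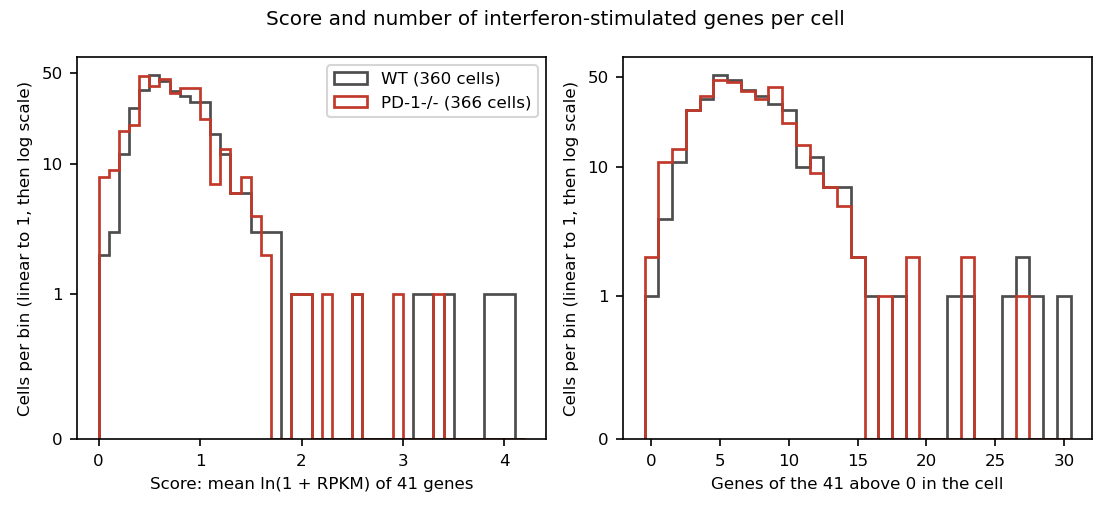
Number of cells by score (left, bins of 0.1) and by number of the 41 genes above 0 (right) for WT (grey) and PD-1-/- (red) cells; the count axis is linear to 1 and logarithmic above. The bulk of both distributions overlaps, and a thin tail of 10 cells with 22 to 30 genes lies apart from it.

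The score followed the number of detected genes, with Spearman's rho of 0.37 over the 360 WT cells and 0.51 over the PD-1-/- cells. It followed recovered reads less, with rho of 0.11 in both. A score over Irf1, the GBPs, Igtp and Irgm1 had medians of 1.70 in WT and 1.61 in PD-1-/- cells, and a score over the other 34 genes 0.521 and 0.496. These part-scores correlated with rho 0.24 in WT and 0.28 in PD-1-/- cells, or 0.19 and 0.17 given detected genes. All these correlations are across cells of 1 library plate, which differ in depth. Recovered reads ran from 1482 to 547164 in kept WT cells and from 2021 to 613638 in kept PD-1-/- cells. How well the recovery holds in the cells with the fewest reads was not tested.

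Coordination between single members was weak. For the 21 members present in 10% or more of cells in both genotypes, the 210 pairs had a mean rho of 0.067 in WT and 0.055 in PD-1-/- cells, and ran from -0.13 to 0.25. Without the 10 cells with 20 or more members the mean was 0.035 in WT and 0.042 in PD-1-/- cells, so the order of the genotypes turned. The members chose these 10 cells, 7 of them WT, so a larger fall in WT is in part built in. Over all pairs of the 6404 genes detected as widely, the mean was 0.016 and 0.017 and the 95th percentile 0.108. In sparse data such values show little beyond sign: 85.2% of the pairs in WT and 85.7% in PD-1-/- cells were above 0, compared with 60.9% and 61.6% of all pairs. The pair with the highest smaller rho was Ddx58 and Parp9, with 0.14 in WT and 0.16 in PD-1-/-. The member closest to the rest of the set was Bst2, with 0.20 and 0.24, followed by Igtp (0.22 and 0.19), Oas1a (0.20 in both) and Ddx58 (0.19 and 0.20). Irf1, the most widely found member, had 0.005 and 0.064.

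Genes outside the set were ranked by the smaller of their 2 correlations with the score, over 6382 genes. Ly6e, an interferon-inducible surface protein gene, had rho 0.25 in WT and 0.24 in PD-1-/- cells, and 0.15 and 0.10 given detected genes. Trafd1 (0.20 and 0.20), Thy1 (0.21 and 0.20) and Psmb9, an immunoproteasome subunit (0.20 and 0.22), followed. Pilrb1, Unc119b, Cnp, H2-T23, Glipr2 and Hvcn1 completed the first 10 of these genes, with rho from 0.18 to 0.21. When ranked given detected genes, 5 of the 10 stayed among the first 30. The medians over all genes were 0.045 and 0.067.

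**Figure D5:**
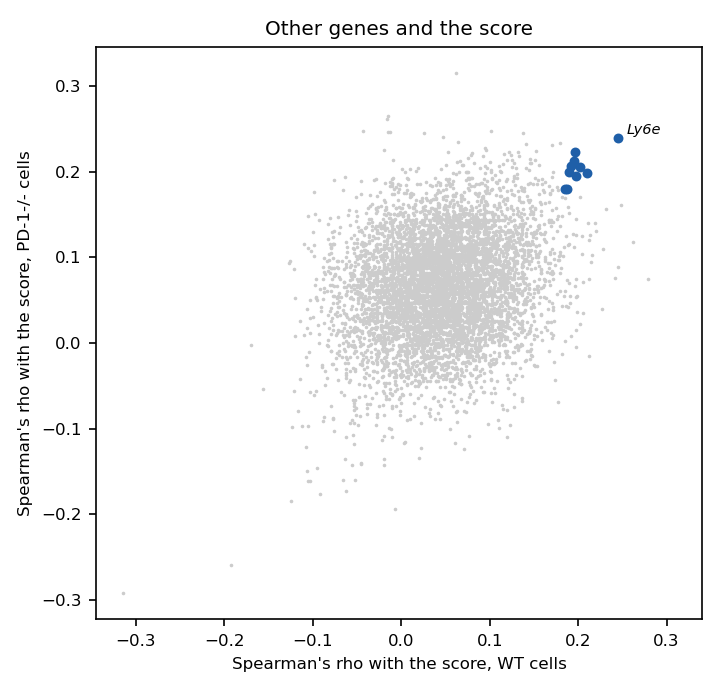
Spearman's rho of each of 6382 other genes with the score in WT cells (x) and PD-1-/- cells (y); blue points are the 10 genes with the highest smaller value. Ly6e lies at 0.25 and 0.24, and the cloud of all genes is centred at 0.045 and 0.067.

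Signalling genes around the set were mostly level. Of 22 pathway genes, 17 passed the limit of 1 RPKM, with a median log2 ratio of -0.01. Of the 17, 1 was at least 1.5-fold higher and 1 lower in PD-1-/- cells, beside 11% and 14% of all genes. Ifngr1, a chain of the interferon gamma receptor, was detected in 98.9% (WT) and 99.7% (PD-1-/-) of cells, whereas its partner Ifngr2 was found in 7 and 1 cells. Ifnar1 was found in 55% and 52.2%, and the kinase gene Jak1 in 90.8% and 90.2%. Stat3, Irf8 and the phosphatase gene Ptpn6 were also found in over 50% of cells, with log2 ratios of -0.16, -0.24 and 0.20. Socs1, a feedback inhibitor, was found in 50.3% and 60.1% of cells at 74.2 and 85.7 RPKM. Ifng, the ligand that NK cells make, was the higher gene, with means of 85.8 and 139.8 RPKM (log2 ratio 0.70), found in 25.8% and 31.1% of cells. Ifnb1, Ifna1, Ifna2, Ifna4 and Ifnl2 were at 0 in all 726 cells, which allows a share of up to 0.413% each by the same rule of 3 counts of the total.

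Ifng was then set against the score within each plate. WT cells with Ifng had a median score of 0.753 (n = 93) and those without 0.703, and PD-1-/- cells 0.759 and 0.676. The intervals overlapped in WT (0.674 to 0.832 and 0.651 to 0.765) and in PD-1-/- (0.679 to 0.829 and 0.629 to 0.731). After a fit on detected genes the differences were 0.010 and 0.035. Of the members split this way, Irgm1 had the widest gap in WT, found in 39.8% of cells with Ifng and 22.8% without. In PD-1-/- cells Irgm1 was found in 23.7% and 26.2%. The widest gap in PD-1-/- cells was that of Irf9 and went the other way, with 16.7% of cells with Ifng and 30.2% without. Irf1 was found in 66.7% and 72.3% of WT cells with and without Ifng, and in 73.7% and 67.1% of PD-1-/- cells.

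Further interferon-stimulated genes were counted in the same way. Of 51 listed, 50 were found and 46 passed the limit. Of the 46, 8 were at least 1.5-fold higher and 10 lower in PD-1-/- cells, with a median log2 ratio of -0.06. Over all genes, 11% were higher and 14% lower. Among genes found in under 10% of the cells of both genotypes, 20.6% were higher and 28.1% lower. Ly6a, the gene of Sca-1, had means of 70.7 and 171.6 RPKM (log2 ratio 1.27) and was found in 46 WT and 83 PD-1-/- cells. Ms4a4c had 66.02 and 32.5 RPKM, a log2 ratio of -1.001, found in 28.3% and 16.1% of cells, and Ifi27 had 144.8 and 92.8 RPKM (-0.64). Irgm2 (0.69) and Pml (0.68) were higher, also in both row blocks, which are parts of the same cells. Ifitm1 was found in 3 and 22 cells, at means of 24.3 and 86.4 RPKM. Its log2 ratio was -0.15 in the upper plate rows and 7.02 in the lower ones. Cxcl10 was found in 11 and 4 cells, at means of 28.4 and 4.35 RPKM (log2 ratio -2.46). The 10 cells with 20 or more members held 65.1% of its RPKM, and without the single cell WT P7 its WT mean was 15.8 RPKM and the log2 ratio -1.65. The 14 genes of this list present in 50% or more of cells in a genotype (Ms4a4b, Ly6e, Psmb8, Apobec3, Epsti1, Sp100, Lgals3bp, Psmb9, Tap1, Ifi47, Mndal, Slfn2, Ifi203 and Nlrc5) had log2 ratios from -0.34 for Mndal to 0.33 for Nlrc5.

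Other transcripts split the cells of each plate in the same way, with detected genes beside them. Cells with Gzmc, a granzyme gene, had a median score of 0.765 in WT against 0.695 without it, and 0.823 (n = 84) against 0.679 in PD-1-/- cells. Cells with Gzmc also had more detected genes, a median of 2536 against 2188 in WT and 2499 against 2154 in PD-1-/- cells, and after a fit on detected genes the differences were -0.07 and 0.04. PD-1-/- cells with Pdcd1 transcripts had 0.759 (n = 47) against 0.680, and WT cells with them 1.04 (n = 9) against 0.711. Detected genes had medians of 2371 against 2232 in PD-1-/- and 2888 against 2254 in WT cells, and after the fit the differences were 0.081 and 0.080. For Cxcr6, a receptor of tissue-resident lymphocytes, the differences were 0.028 in WT and -0.029 in PD-1-/- cells, and after the fit -0.108 and -0.021. Cells with Cd3d, Cd3e or Cd3g differed from the rest by 0.079 in WT and 0.032 in PD-1-/- cells, and by -0.005 and 0.008 after the fit. Differences for Itga1, Klrg1 and Mki67 lay between -0.09 and 0.23, with the highest for 17 WT cells with Mki67, whose interval (0.568 to 1.12) held the median of the rest. These 17 cells had a median of 2538 detected genes against 2254. After the fit the differences for the same genes lay between -0.097 in PD-1-/- and 0.080 in WT cells, both for Mki67.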

How the data were processed

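The authors deposited RPKM per gene and well, with 24490 gene entries and 384 wells per plate. The submitters' processing notes name TopHat, Cufflinks, mm9 and mm10 without their roles, and the annotation is not given in the sources used here. RPKM is relative to the reads of each cell, so levels are shares of a cell's RNA. A cell was kept at 1000 to 3500 detected genes, counting genes above 0 in at least 3 wells. The 41 members and all lists were chosen with earlier results of these data known. With 1 pool and 1 plate per genotype, nothing was tested and no p-value is given.

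Log2 ratios are between the genotypes' means of RPKM, each plus a pseudocount of 1, where either mean reached 1 RPKM. The score was the mean of ln(1 + RPKM), and correlations were Spearman's, within a plate. Whole reads were recovered from equal RPKM steps for 9652 genes, and approximately for 1783 more; 99.5% of 669125 low values were whole within a relative tolerance of 0.0003. They served for depth and thinning only. The recovery, the ratios and the correlations were tested on simulated data. The simulated ratios covered only genes with a WT mean of at least 10 RPKM and planted changes larger than 1.5-fold. Lower means and changes near 1.5-fold were not covered. Promoters came from RefSeq on GRCm38.p6. Named genes were members present in 20% or more of a genotype's cells or past 1.5-fold with either mean at 10 RPKM or more, listed genes past that limit or found in at least 50% of cells, and the 10 genes most like the score. Python 3.11.15, numpy 2.4.6, pandas 2.3.3, scipy 1.17.1 and matplotlib 3.10.9 were used. Alternatives changed the cells, rows, scaling, pseudocount, fold, presence limit and depth. Results that need an item withheld for evaluation are not reported here, and it was left out of the lists and of the ranking by the score.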

Additional observations from a re-analysis of the deposited data

How the results depend on the processing

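The difference in score stayed below 0 under all 12 alternatives but came to -0.0003 in rows I to P and over the members found in at least 10% of cells. The half-width of its interval, 0.066, is larger than the difference, so alternatives near 0 count as no move. The number of members found in at least 10% of cells stayed within 1.5 times under all 12. The count of members at least 1.5-fold lower went from 15 to 4 with a pseudocount of 10 RPKM, to 9 at 2-fold, to 5 where either mean had to reach 10 RPKM, and to 5 without the cells with 20 or more members. It was 12 without CD3 cells. The count at least 1.5-fold higher went from 0 to 1 after scaling cells to a total of 10000, without CD3 cells, in rows I to P and without rows A and B, and to 2 after thinning to 100000 reads, which covers 36 members. No share over all genes is given under these alternatives, so the changes in both counts are not read as a trait of this set. The SD of the score became 0.163 in WT and 0.118 in PD-1-/- cells after scaling, which changes the unit, and 0.662 in PD-1-/- cells over the widely found members. Without the cells with 20 or more members, chosen by the members themselves, the mean pairwise correlation in WT fell to 0.0346, below the 0.042 of PD-1-/- cells. This alternative was added after the data were seen. So were the log2 ratios of Ifit1 and Cxcl10 without their highest cell, and that of Ifitm1, which was 1.54. At 15 or more members there were 11 WT and 8 PD-1-/- cells, and at 25 or more 1 PD-1-/- cell. No paired analysis was possible because each genotype is 1 pool. Members found in few cells are limited by depth and dropout, so an absence in a cell is not an absence of expression.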
